A study of Mus musculus with 47 samples.

Results

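The genes described here make cyclic AMP (cAMP) in the striatum or couple receptors to that step: the adenylyl cyclase genes Adcy1, Adcy2, Adcy3, Adcy5, Adcy6, Adcy7, Adcy8 and Adcy9, and Gnal and Gng7, which encode the alpha and gamma subunits of the striatal G protein Golf. These 10 genes were taken by name from a deposited table of 48795 genes, and all 10 were among the 19193 genes that passed a filter on low counts. Their mRNA was counted in 47 RNA sequencing libraries, made from the corpus striatum of mice of 6 months. Q140 mice, a Huntington's disease model labelled as heterozygous knock-in (Het (Q140) KI), in which the CAG repeat of 1 copy of the huntingtin gene Htt is lengthened, were set against wild type mice (8 libraries each). Q140 Ccdc82+/- mice were set against Ccdc82+/- mice (8 each), and Q140 Ccdc82-/- mice (7) against Ccdc82-/- mice (8). Each group held 4 females and 4 males, except Q140 Ccdc82-/- with 3 females and 4 males, and the labels give C57BL as the background of all 6 groups. The other Q140 groups carry the same heterozygous knock-in, and how the Ccdc82 alleles were made is not given in the sources used here.

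Adenylyl cyclases are membrane enzymes that turn ATP into cAMP, and stimulatory G proteins switch them on. Most striatal neurons are medium spiny neurons, in which the dopamine receptor Drd1 and the adenosine receptor Adora2a act through Golf in place of the more widespread protein Gs, while the dopamine receptor Drd2 and the muscarinic receptor Chrm4 act through Gi or Go and hold the cyclase back. Adcy5 is known as the main cyclase of these neurons. The other cyclases differ in how they are regulated: calcium with calmodulin stimulates Adcy1, Adcy3 and Adcy8, calcium inhibits Adcy5 and Adcy6, and G protein beta-gamma subunits stimulate Adcy2 and Adcy7.

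Libraries held 41.3 to 61.7 M counts (median 47.7 M). Levels are given as CPM, a gene's count scaled to a common library size with TMM factors (trimmed mean of M values), or as the FPKM values that the authors deposited (fragment counts corrected for gene length and library total), which allow levels of different genes to be set side by side. Ccdc82, the targeted gene, had 3.92 to 5.87 CPM in Ccdc82-/- and 7.70 to 9.19 CPM in Ccdc82+/- mice, against 10.6 to 12.9 CPM in wild type mice. It had 3.67 to 5.35 CPM in Q140 Ccdc82-/- and 7.27 to 9.99 CPM in Q140 Ccdc82+/- mice, against 10.1 to 12.8 CPM in Q140 mice, so its mRNA was lower but present in the libraries labelled -/-. Markers of medium spiny neurons were abundant in every library, at 6791 CPM or more summed over 10 genes, while 8 markers of cortical excitatory neurons summed to 17.9 to 27.7 CPM. A male Ccdc82-/- library had 342.0 CPM over 8 choroid plexus markers, against at most 70.6 CPM in any other library.

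With the Q140 allele, Adcy5, Adcy9, Gnal and Gng7 fell, and the other 6 genes did not pass the test. The same 4 genes fell on all 3 Ccdc82 backgrounds, and no member rose on any of them. Adcy5 fell most, to 64.5% of its wild type level, while Adcy9 stood at 84.8%, Gnal at 89.4% and Gng7 at 90.8%. Here and throughout, unless another tool is named, p-values are those of edgeR's quasi-likelihood test with Benjamini-Hochberg adjustment over all 19193 genes, and a gene passed at an adjusted p under 0.05. In the comparison of Q140 with wild type, 34.7% of all genes passed the same threshold, 18.2% higher and 16.5% lower. The 4 of 10 members that passed are near the share in either direction, but all 4 were lower, beside 16.5% of all genes. Whether members fell more often than other genes was not tested. For Q140 Ccdc82+/- against Ccdc82+/- mice the shares were 35.0% in all, 18.4% higher and 16.7% lower, and for Q140 Ccdc82-/- against Ccdc82-/- mice they were 33.2%, 17.5% and 15.7%. The median log2 fold change of the 10 members was -0.068, -0.093 and -0.092 in the 3 comparisons, beside -0.00051, 0.011 and 0.0069 over all genes. In bulk tissue, fewer cells of a type and less RNA per cell cannot be told apart.

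**Figure D1:**
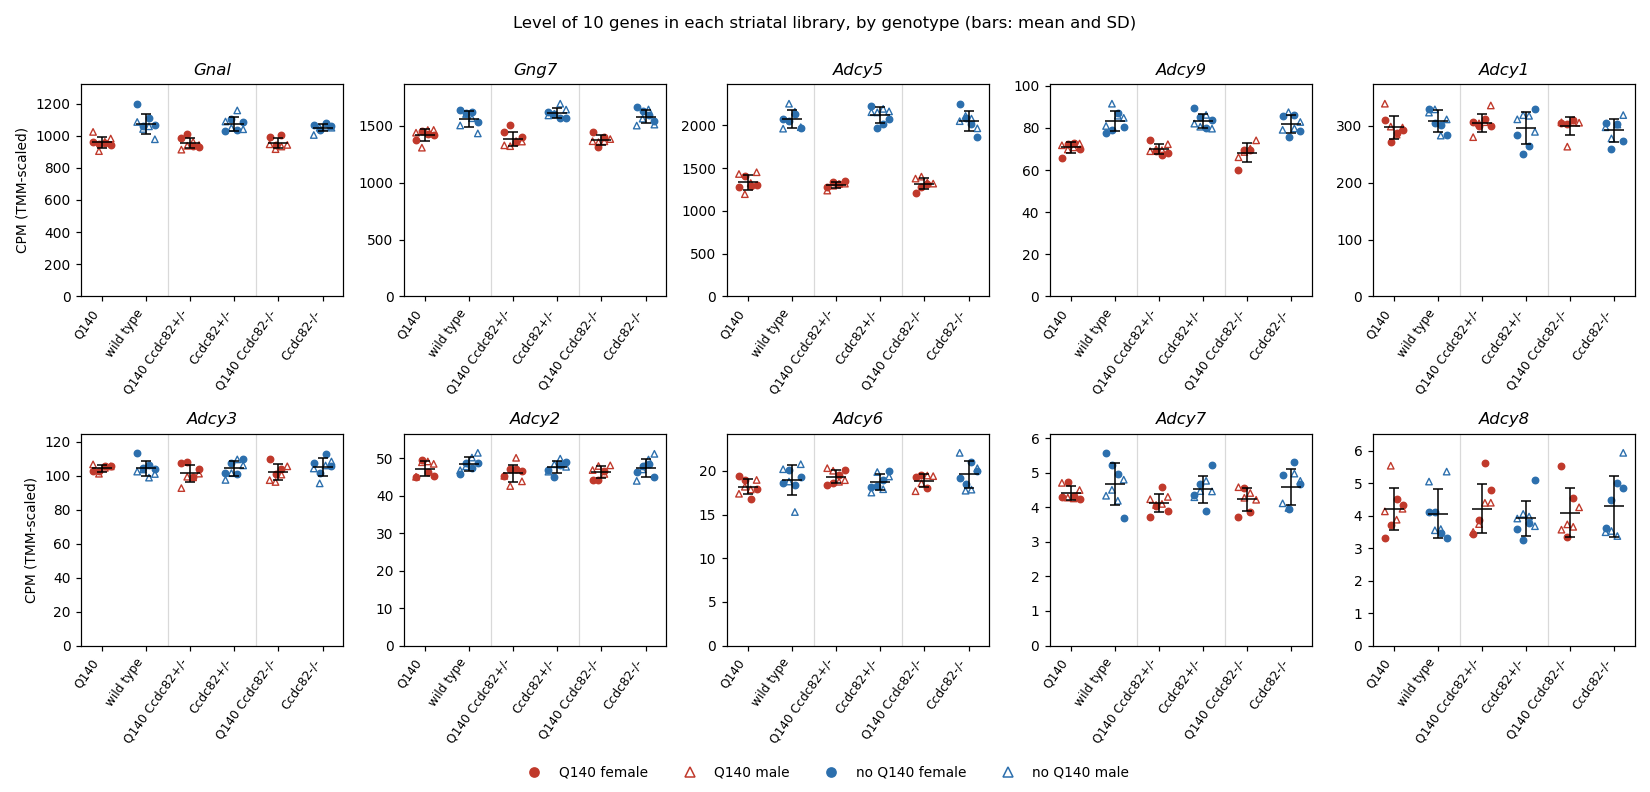
Level of each of the 10 genes (CPM, y axis from 0) in every library, by genotype on the x axis, with females as filled circles, males as open triangles, and the mean and SD of each group as black bars. All 23 Q140 libraries lie below all 24 libraries without the allele for Adcy5 and Adcy9, while the ranges of Adcy1, Adcy2, Adcy3, Adcy6, Adcy7 and Adcy8 overlap within each pair.

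Adcy5 (ENSMUSG00000022840, chromosome 16, 35154877 to 35305738, plus strand), the calcium-inhibited cyclase of medium spiny neurons, had the largest Q140 difference of the 10 genes in each comparison. Positions are those of GRCm38 in GENCODE release M21. The lowest, median and highest levels of Adcy5 were 1196, 1313 and 1453 CPM in Q140 mice, against 1962, 2064 and 2254 CPM in wild type mice. On the heterozygous background they were 1238, 1312 and 1350.2 CPM in Q140 Ccdc82+/- mice, against 1965, 2154 and 2232 CPM in Ccdc82+/- mice. On the homozygous background they were 1209.9, 1319.8 and 1401 CPM in Q140 Ccdc82-/- mice, against 1863, 2065 and 2252 CPM in Ccdc82-/- mice. The groups did not overlap in any pair: the highest Q140 library of the study, at 1453 CPM, lay below the lowest library without the allele, at 1863 CPM. With edgeR the log2 fold changes of Adcy5 were -0.63 ± 0.034 (SE, adjusted p = 2.1e-20), -0.70 ± 0.034 (adjusted p = 3.62e-22) and -0.64 ± 0.036 (adjusted p = 7.83e-20). Of all genes tested, 2.53%, 1.62% and 1.99% had a lower log2 fold change in these comparisons. The fall stood beside a fall of striatal neuron markers: 9 of 10 medium spiny neuron markers were lower in Q140 than in wild type mice, with a median log2 fold change of -0.37, and their summed level was 6791 to 8226 CPM in Q140 mice, against 10750 to 12310 CPM in wild type mice. Penk, the enkephalin precursor, fell by 1.03 on the log2 scale, and Pde10a, a phosphodiesterase, and Rgs9, which shortens G protein signals, fell by 0.81 and 0.65. These markers were picked by their small p in this comparison, so they do not stand for the list of 10. None of the 10 markers was at 0, and their part in the fall of Adcy5 was not tested.

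Adcy9 (ENSMUSG00000005580, chromosome 16, 4287529 to 4420498, minus strand), a widely expressed cyclase that the plant compound forskolin activates poorly, fell by less than Adcy5, and its libraries with and without the allele did not overlap either, though the gap between them was narrow. Its lowest, median and highest levels were 65.6, 71.3 and 72.9 CPM in Q140 mice, against 77.8, 82.9 and 91.5 CPM in wild type mice. They were 67.0, 69.2 and 74.2 CPM in Q140 Ccdc82+/- mice, against 79.7, 83.0 and 89.5 CPM in Ccdc82+/- mice, and 60.0, 69.4 and 74.1 CPM in Q140 Ccdc82-/- mice, against 75.5, 81.3 and 87.5 CPM in Ccdc82-/- mice. All 23 Q140 libraries lay below all 24 others, with 74.2 CPM as the highest level with the allele and 75.5 CPM as the lowest without it. By the same edgeR test Adcy9 had log2 fold changes of -0.24 ± 0.033 (SE, adjusted p = 8.78e-08), -0.26 ± 0.033 (adjusted p = 1.41e-08) and -0.26 ± 0.035 (adjusted p = 2.26e-08).

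Gng7 (ENSMUSG00000048240, chromosome 10, 80948624 to 81014945, minus strand) encodes the gamma subunit that pairs with Golf alpha in the striatum. Its lowest, median and highest levels were 1309, 1435 and 1465 CPM in Q140 mice, against 1435, 1587 and 1637 CPM in wild type mice, and these groups overlapped. On the other backgrounds they were 1322, 1365 and 1505 CPM in Q140 Ccdc82+/- mice, against 1569, 1606 and 1696 CPM in Ccdc82+/- mice, and 1311, 1366 and 1450.2 CPM in Q140 Ccdc82-/- mice, against 1503, 1581 and 1665 CPM in Ccdc82-/- mice, with no overlap in either pair. In edgeR's test the log2 fold changes were -0.14 ± 0.027 (SE, adjusted p = 3.07e-05), -0.22 ± 0.027 (adjusted p = 2.39e-09) and -0.20 ± 0.028 (adjusted p = 7.2e-08). With limma on the authors' FPKM, where only the library total sets the scale, the fall in Q140 against wild type mice was smaller, at -0.084 (adjusted p = 0.00322), and over 13 alternatives to the test above its adjusted p ran from 1.78e-06 to 0.0428.

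Gnal encodes the alpha subunit of Golf, which binds GTP and activates the cyclase. Its lowest, median and highest levels were 904, 958 and 1024 CPM in Q140 mice, against 978, 1062 and 1199 CPM in wild type mice, and the lowest wild type library lay within the Q140 range. They were 913, 939 and 1009 CPM in Q140 Ccdc82+/- mice, against 1027, 1066 and 1157 CPM in Ccdc82+/- mice, with no overlap. They were 916, 943 and 1006 CPM in Q140 Ccdc82-/- mice, against 1004, 1052 and 1081 CPM in Ccdc82-/- mice, where the highest Q140 Ccdc82-/- library lay just above the lowest Ccdc82-/- library. For Gnal edgeR gave log2 fold changes of -0.16 ± 0.027 (SE, adjusted p = 3.84e-06), -0.17 ± 0.027 (adjusted p = 8.58e-07) and -0.14 ± 0.028 (adjusted p = 0.000112). With limma on the deposited FPKM values they were -0.10, -0.10 and -0.071, still past the threshold. With males alone the change in Q140 against wild type mice was -0.10 (edgeR, adjusted p = 0.046), the weakest of 13 alternatives, whose adjusted p started at 5.27e-08.

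Between the groups of each pair, CPM ranges did not overlap for 2 members in Q140 against wild type mice (Adcy5 and Adcy9), as for 9.77% of all genes. On the heterozygous background 4 members did not overlap, beside 10.3% of all genes, and on the homozygous background 3 members did not (Adcy5, Adcy9 and Gng7), beside 9.48% of all genes. All of these were lower in the Q140 group. Over the whole study, 16 of 23 Q140 libraries lay below every library without the allele for Gng7, and 17 of 23 did so for Gnal. By the well addresses in the labels, the libraries were unevenly spread over the plate, with 0 of the 8 Q140 libraries and 4 of the 8 wild type libraries in plate column 4. With the plate column as a factor, the log2 fold changes in Q140 against wild type mice were -0.64 for Adcy5, -0.24 for Adcy9, -0.14 for Gnal and -0.13 for Gng7, and single columns held too few libraries of both groups for values of their own.

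The promoters of 3 genes that fell with Q140 (Adcy5, Adcy9 and Gng7) and of Adcy1, an abundant cyclase that did not pass the test, are shown to set the genes that fell beside a cyclase that did not pass. They are RefSeq sequences of GRCm38.p6, 300 bases long, from 250 bases before the start of transcription to 50 bases after it, on the strand of the gene, with matches to the GC box GGGCGG in capitals, found on either strand.
Adcy5, chr16:35154614-35154913, plus strand: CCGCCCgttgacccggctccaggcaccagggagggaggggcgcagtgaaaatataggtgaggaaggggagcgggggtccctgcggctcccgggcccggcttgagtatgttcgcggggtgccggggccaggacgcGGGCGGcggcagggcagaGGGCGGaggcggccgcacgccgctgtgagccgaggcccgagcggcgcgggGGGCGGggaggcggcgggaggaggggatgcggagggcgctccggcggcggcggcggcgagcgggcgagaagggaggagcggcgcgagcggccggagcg
Adcy9, chr16:4420449-4420748, minus strand: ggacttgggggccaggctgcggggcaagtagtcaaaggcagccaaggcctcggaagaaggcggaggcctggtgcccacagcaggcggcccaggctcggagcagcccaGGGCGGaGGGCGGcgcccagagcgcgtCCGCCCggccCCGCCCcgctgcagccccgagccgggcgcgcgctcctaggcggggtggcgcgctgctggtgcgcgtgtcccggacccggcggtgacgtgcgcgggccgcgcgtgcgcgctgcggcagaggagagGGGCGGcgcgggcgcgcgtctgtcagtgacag
Gng7, upstream of its 2 listed promoters, chr10:81014876-81015175, minus strand: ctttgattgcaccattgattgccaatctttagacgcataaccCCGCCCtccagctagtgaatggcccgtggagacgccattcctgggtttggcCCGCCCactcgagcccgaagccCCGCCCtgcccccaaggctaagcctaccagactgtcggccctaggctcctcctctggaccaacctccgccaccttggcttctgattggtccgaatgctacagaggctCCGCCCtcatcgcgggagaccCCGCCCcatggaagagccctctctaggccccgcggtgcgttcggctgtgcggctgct
Adcy1, chr11:7063183-7063482, plus strand: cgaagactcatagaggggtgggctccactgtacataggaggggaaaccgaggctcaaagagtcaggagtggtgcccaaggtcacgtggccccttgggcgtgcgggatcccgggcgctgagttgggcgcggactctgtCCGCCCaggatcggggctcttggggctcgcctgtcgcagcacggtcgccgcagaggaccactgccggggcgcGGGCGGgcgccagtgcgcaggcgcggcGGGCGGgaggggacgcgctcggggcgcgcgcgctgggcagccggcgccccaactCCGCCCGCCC

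The Adcy5 promoter had a GC content of 79.0% and 44 CpG dinucleotides, a CpG count above that of 97.8% of the 32851 mouse promoters in the RefSeq table, whose medians were 52.7% GC and 7 CpG. The Adcy9 promoter had 78.3% and 42 CpG, the Adcy1 promoter 74.0% and 37 CpG, and the Gng7 promoter 63.7% and 20 CpG. All 4 held several GC boxes: 4 in Adcy5, and 5 each in Adcy9, Gng7 and Adcy1, a motif with at least 1 match on either strand in 35.7% of all promoters. Overlapping matches were counted separately: those at positions 41 and 45 in Adcy1 share bases and show as 1 marked stretch. All motifs were searched on both strands, and the Egr motif shares letters with the GC box. The cAMP response element TGACGTCA, found in 1.79% of all promoters, was in none of the 11 promoters listed for 7 of the members. Its shorter core TGACG, found in 20.8%, was in Adcy9 at position -24 from the start, in the downstream Gng7 promoter at -109 and in 1 of 3 Adcy7 promoters. The Egr motif GCGNGGGCG, found in 5.55%, matched once each in Adcy1, Adcy2 and Adcy9, and the AP-1 motif TGANTCA, found in 7.81%, once each in a promoter of Adcy3 and of Adcy7. The CCAAT box, found in 37.4%, matched in Adcy2, Adcy3, Adcy7 and Gng7, where the upstream promoter held 2. Adcy1, which did not pass the test, held GC boxes in a GC-rich promoter, as did the promoters shown of genes that fell. Among other genes that did not pass, Adcy2 had 75.0% GC and 3 GC boxes, and the upstream Adcy3 promoter 68.7% and 1. The downstream Adcy3 promoter had 56.0% and 0, and the 3 Adcy7 promoters 54.7%, 57.0% and 55.7% with 0, 0 and 1. The downstream Gng7 promoter had 58.0% and 0. A link of these sequences to the Q140 effect was not tested. Promoters of Adcy6, Adcy8 and Gnal are not shown.

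**Figure D2:**
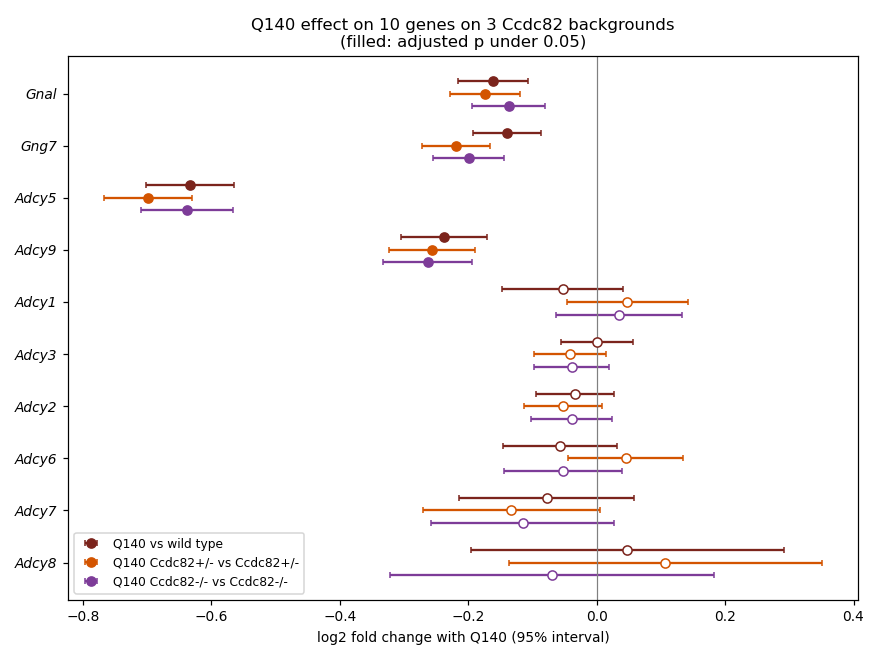
Log2 fold change with Q140 (x axis) of the 10 genes (y axis) on 3 Ccdc82 backgrounds, with 95% intervals and filled points for an adjusted p under 0.05. Adcy5 lies between -0.70 and -0.63, Adcy9, Gnal and Gng7 between -0.26 and -0.14, and the open points of the other 6 genes have intervals that include 0.

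Of the calcium-stimulated cyclases, Adcy1 and Adcy3 were abundant enough for narrow intervals. Adcy1 (ENSMUSG00000020431, chromosome 11, 7063489 to 7178506, plus strand), known for its part in synaptic plasticity, had 271, 295 and 339 CPM as its lowest, median and highest levels in Q140 mice, against 283, 309 and 330.5 CPM in wild type mice. Its 95% interval in this comparison was -0.15 to 0.041 on the log2 scale, around -0.053. The estimate had the other sign on the heterozygous background, 0.048 (-0.047 to 0.14), and on the homozygous background, 0.035 (-0.063 to 0.13). Adcy3 (ENSMUSG00000020654, chromosome 12, 4133103 to 4213525, plus strand), the cyclase of olfactory neurons and of neuronal cilia, had 101, 105 and 107 CPM in Q140 mice, against 98.9, 104 and 114 CPM in wild type mice. Its log2 fold changes were 0.00036 (-0.056 to 0.057), -0.041 (-0.10 to 0.015) and -0.039 (-0.10 to 0.019) on the 3 backgrounds. Adcy8 (ENSMUSG00000022376, chromosome 15, 64697084 to 64922296, minus strand), also stimulated by calcium, had a low level, with 135 to 295 counts per library. It had 3.33, 4.17 and 5.54 CPM in Q140 mice, against 3.30, 3.84 and 5.35 CPM in wild type mice, and the interval of -0.20 to 0.29 around 0.048 was the widest of the 10.

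Among the remaining cyclases, Adcy6 (ENSMUSG00000022994, chromosome 15, 98589973 to 98610076, minus strand) is the closest relative of Adcy5 and, unlike it, did not pass the test. Adcy6 had 16.8, 18.1 and 19.4 CPM in Q140 mice, against 15.3, 19.1 and 20.8 CPM in wild type mice, a log2 fold change of -0.057 (-0.15 to 0.032), with 0.045 (-0.044 to 0.13) and -0.053 (-0.14 to 0.039) on the other backgrounds. Adcy2 (ENSMUSG00000021536, chromosome 13, 68620043 to 68999541, minus strand), a cyclase of neurons stimulated by beta-gamma subunits, had 45.1, 47.5 and 49.6 CPM in Q140 mice, against 45.7, 48.4 and 51.5 CPM in wild type mice, and -0.034 (-0.094 to 0.027) on the log2 scale. Adcy7 (ENSMUSG00000031659, chromosome 8, 88272403 to 88329962, plus strand), known from immune cells, had 4.25, 4.31 and 4.74 CPM in Q140 mice, against 3.69, 4.65 and 5.57 CPM in wild type mice. Its estimates were below 0 on all backgrounds, at -0.078, -0.13 and -0.12, and none passed in edgeR (smallest adjusted p = 0.131). With limma on the deposited FPKM values, 6 members passed on the heterozygous background, since Adcy1 at 0.12 (adjusted p = 0.0233) and Adcy6 at 0.11 (adjusted p = 0.0487) were then called higher. Over their 13 alternatives adjusted p ran from 0.0233 to 0.916 for Adcy1 and from 0.0481 to 0.832 for Adcy6. On that scale 73.6% of all genes called in Q140 against wild type mice were higher, beside 52.4% with TMM factors, and the median of all genes moved to 0.049.

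None of these 6 genes passed on the other backgrounds, and their ranges there were close to those above. Adcy1 had 280.1 to 336 CPM in Q140 Ccdc82+/- mice, against 251 to 330.2 CPM in Ccdc82+/- mice, and 263 to 311 CPM in Q140 Ccdc82-/- mice, against 260.1 to 319 CPM in Ccdc82-/- mice. Adcy3 had 92.8 to 108 CPM in Q140 Ccdc82+/- mice, against 97.6 to 109.7 CPM in Ccdc82+/- mice, and 96.4 to 109.7 CPM in Q140 Ccdc82-/- mice, against 95.5 to 113 CPM in Ccdc82-/- mice. Adcy2 had 42.6 to 50.2 CPM in Q140 Ccdc82+/- mice, against 45.1 to 49.96 CPM in Ccdc82+/- mice, and 44.3 to 48.2 CPM in Q140 Ccdc82-/- mice, against 44.0 to 51.2 CPM in Ccdc82-/- mice. All of these ranges overlapped within their pair. Adcy6 had 18.4 to 20.3 CPM in Q140 Ccdc82+/- mice, against 17.5 to 19.9 CPM in Ccdc82+/- mice, and 17.7 to 19.6 CPM in Q140 Ccdc82-/- mice, against 17.7 to 22.1 CPM in Ccdc82-/- mice. Adcy7 had 3.73 to 4.59 CPM in Q140 Ccdc82+/- mice, against 3.89 to 5.22 CPM in Ccdc82+/- mice, and 3.71 to 4.58 CPM in Q140 Ccdc82-/- mice, against 3.94 to 5.32 CPM in Ccdc82-/- mice. Adcy8 had 3.44 to 5.62 CPM in Q140 Ccdc82+/- mice, against 3.24 to 5.10 CPM in Ccdc82+/- mice, and 3.33 to 5.51 CPM in Q140 Ccdc82-/- mice, against 3.37 to 5.93 CPM in Ccdc82-/- mice. These ranges overlapped as well.

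Per length, the members spanned a wide range of levels, and the order of the group means was the same in all 6 groups. In wild type mice Gng7 had 405 ± 14.1 FPKM (SD, n = 8), Adcy5 289.8 ± 14.4 and Gnal 183 ± 8.21. Adcy1 followed at 24.1 ± 1.35 FPKM, Adcy3 at 16.4 ± 0.480, Adcy9 at 15.7 ± 0.987 and Adcy2 at 11.3 ± 0.572. The lowest were Adcy6 at 3.08 ± 0.287 FPKM, Adcy8 at 0.792 ± 0.153 and Adcy7 at 0.677 ± 0.0811. Neighbours in this order had separate ranges over the wild type libraries, except Adcy3 with Adcy9 and Adcy8 with Adcy7, which overlapped. In Q140 mice Adcy3, at 17.0 ± 0.248 FPKM (SD, n = 8), stood apart from Adcy9 at 13.9 ± 0.420, while Adcy5, at 194 ± 11.5, overlapped with Gnal at 169.7 ± 5.15. Adcy3 stood apart from Adcy9 in all 3 groups with the Q140 allele and overlapped with it in the 3 groups without. Adcy5 overlapped with Gnal also in Q140 Ccdc82-/- mice, as Adcy9 did with Adcy2, and Adcy8 overlapped with Adcy7 in every group. The length behind the deposited FPKM equalled the merged exon length in GENCODE release M21 for 6 of the 10 genes, and was shorter for Adcy5, Adcy6, Adcy8 and Gnal. With the merged lengths Gnal had 87.5 FPKM in Q140 and 94.1 in wild type mice, still in the third place, while Adcy5 had 189.4 in Q140 and 282.6 in wild type mice, so the overlap of Adcy5 with Gnal held only with the deposited lengths. With the merged lengths Adcy8 ranked below Adcy7 in both groups.

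On the deposited FPKM scale Adcy5 made up most of the cyclase mRNA, and nearly all of the change in the sum came from it. Over the 10 adenylyl cyclase genes of the table, which include Adcy4 and Adcy10 beside the members, summed FPKM was 266 ± 11.8 in Q140 and 363 ± 14.9 in wild type mice (SD, n = 8 each), 73.4% of the wild type level. It was 264 ± 5.27 in Q140 Ccdc82+/- and 367 ± 13.5 in Ccdc82+/- mice (n = 8 each), and 265 ± 9.96 in Q140 Ccdc82-/- (n = 7) and 358 ± 16.0 in Ccdc82-/- mice (n = 8). The groups of each pair did not overlap. Of the difference of -96.7 FPKM between Q140 and wild type mice, -95.6 came from Adcy5, and the cyclases other than Adcy5 summed to 70.2 to 74.5 FPKM in Q140 mice, against 70.6 to 76.2 FPKM in wild type mice. These values carry no TMM factors. With such factors, mean FPKM in Q140 and wild type mice was 191 and 296 for Adcy5, 23.8 and 24.6 for Adcy1, and 16.7 and 16.7 for Adcy3. It was 13.6 and 16.1 for Adcy9 and 0.835 and 0.808 for Adcy8, and the sum was not computed on that scale. Adcy5 made up 72.9 ± 1.19% of the sum in Q140 and 79.8 ± 0.822% in wild type mice, and Adcy1, the next in rank, 9.10 ± 0.669% and 6.66 ± 0.426% (SD, n = 8 each, in the same order). The share of Adcy9 was higher with Q140 although its level fell, at 5.21 ± 0.226% in Q140 and 4.33 ± 0.172% in wild type mice.

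**Figure D3:**
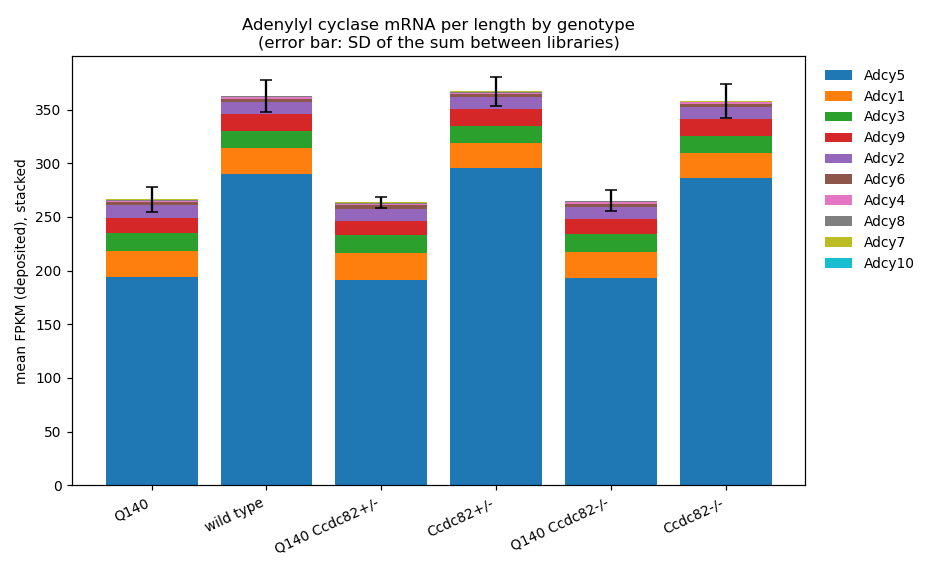
Mean deposited FPKM of the 10 adenylyl cyclase genes, stacked, by genotype (x axis), with the SD of the sum between libraries as the error bar. The sum was 266 FPKM in Q140 and 363 FPKM in wild type mice, and Adcy5 makes up most of every bar and nearly all of the difference.

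Gnal and Gng7 can be set beside related subunits in the same way. Gnal took 86.4 ± 0.928% of the summed FPKM of Gnal and Gnas, the gene of the widespread alpha subunit of Gs, in Q140 mice and 88.2 ± 0.923% in wild type mice (SD, n = 8 each), and these ranges overlapped. This share rests on the deposited lengths of both genes. That of Gnal was 5761 bases, against 11172 bases of merged exons, and that of Gnas was not set beside the annotation. The share was not computed with merged lengths. Without a correction for length, Gnal averaged 1074 CPM and Gnas 279 CPM in wild type mice, beside 183 and 24.4 FPKM. Gnas itself did not pass with edgeR in Q140 against wild type mice (0.066 ± 0.036 on the log2 scale, SE, adjusted p = 0.158). Gng7 took 77.5 ± 0.805% of the FPKM of 12 gamma subunit genes in Q140 and 82.5 ± 0.924% in wild type mice (SD, n = 8 each), with ranges of 75.8 to 78.6% and 80.6 to 83.6% that did not overlap. The shares were within 1 percentage point of these in the corresponding groups on both Ccdc82 backgrounds. Ranges of the Gnal share just overlapped on the heterozygous background, at 85.3 to 87.2% in Q140 Ccdc82+/- and 87.1 to 89.3% in Ccdc82+/- mice. On the homozygous background they did not, at 86.1 to 86.6% in Q140 Ccdc82-/- and 86.7 to 89.0% in Ccdc82-/- mice.

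No difference between Ccdc82 genotypes passed the test for any of the 10 genes. In Q140 Ccdc82+/- against Q140 mice and in Q140 Ccdc82-/- against Q140 mice 0 of 10 members passed, as in Ccdc82+/- and in Ccdc82-/- against wild type mice, with edgeR and with DESeq2. In each of these 4 comparisons 1 of all genes tested passed (0.00521%), Ccdc82 itself. No member had an unadjusted p under 0.05 in them, and the smallest was 0.0505, for Adcy6 in Q140 Ccdc82+/- against Q140 mice (0.089 on the log2 scale, 95% interval -0.00020 to 0.18). Adcy5 averaged 2052 ± 113 CPM in Ccdc82-/- and 2120.3 ± 91.1 CPM in Ccdc82+/- mice, beside 2073 ± 105 CPM in wild type mice (SD, n = 8 each). With the allele it averaged 1321 ± 62.6 CPM in Q140 Ccdc82-/- (n = 7) and 1306 ± 35.7 CPM in Q140 Ccdc82+/- mice (n = 8), beside 1336 ± 87.2 CPM in Q140 mice (n = 8). The 95% interval of the log2 difference of Adcy5 was -0.090 to 0.052 for Q140 Ccdc82-/- against Q140 mice and -0.10 to 0.036 for Q140 Ccdc82+/- against Q140 mice.

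Whether the Q140 effect itself depended on Ccdc82 was tested as an interaction, and 0 of 10 members passed with either edgeR or DESeq2. With edgeR 0 of the 19193 genes (0%) passed in both interactions, with 1011 at an unadjusted p under 0.05 for Ccdc82+/- and 826 for Ccdc82-/-, and with DESeq2 1 gene that is no member, Gm10123, passed for Ccdc82+/-. For Adcy5 the Q140 effect differed by -0.065 (95% interval -0.16 to 0.032) between the heterozygous and the wild type background and by -0.0048 (-0.10 to 0.094) between the homozygous and the wild type background. Gng7 had the only unadjusted p under 0.05 among the members, 0.0395 for the heterozygous background, with a difference of -0.079 (-0.15 to -0.0040) and an adjusted p of 0.915. Its estimate for the homozygous background was -0.059 (-0.14 to 0.017). The Q140 comparisons share no libraries with each other on different backgrounds, but the 2 interactions share the Q140 and wild type groups.

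No member had a Q140 effect that differed between the sexes past the threshold. Averaged over the 3 backgrounds, Adcy5 changed by -0.66 in females and -0.66 in males on the log2 scale, a difference of -0.0037 (95% interval -0.085 to 0.078). Adcy9 changed by -0.26 in females and -0.24 in males, Gnal by -0.16 and -0.16, and Gng7 by -0.18 and -0.19 in the same order. With edgeR 0 of 10 members had a sex difference in the Q140 effect, also at an unadjusted p under 0.05, and 0 of all genes did (0%), with 594 at an unadjusted p under 0.05. In level, females against males over all groups, 1 member passed, beside 8.67% of all genes: Adcy3 was higher in females by 0.049 ± 0.016 (SE) on the log2 scale, with an adjusted p of 0.0499 that lay just inside the threshold.

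After group and sex were taken out, the levels of some members still moved together between the 47 libraries. This is a description of the residual log2 CPM, in which all genes share the library, its depth and its dissection. Gng7 correlated with Gnal at r = 0.61 (Spearman's rho 0.57) and with Adcy5 at r = 0.60 (rho 0.60), and at 0.57 and 0.53 without the 2 libraries farthest from the median. Adcy5 and Gnal, by contrast, had r = 0.21 (rho 0.15, and r = 0.14 without the 2 farthest). Adcy3 went with Gnal at r = 0.60 (rho 0.59) and with Adcy1 at r = 0.53 (rho 0.51), and these stood at 0.64 and 0.57 without the 2 farthest libraries. Adcy6 ran the other way from Gng7, at r = -0.43 (rho -0.41, and -0.43 without the 2 farthest). The genes most like Adcy5 by this measure, among 13893 genes, were the sodium channel subunit gene Scn4b (r = 0.898), Adora2a (0.845) and Ace, the angiotensin-converting enzyme (0.841). For Gng7 they were the potassium channel subunit gene Kcnab1 (0.81), Rasd2, a small GTPase enriched in striatum (0.771), and Elmod1 (0.764). For Gnal they were the GABA receptor genes Gabbr1 (0.81) and Gabra4 (0.81), and Mmd (0.799). With Q140 against wild type, the 3 genes most like Adcy5 fell, Scn4b by 1.06, Adora2a by 0.74 and Ace by 0.52 on the log2 scale. The 3 most like Gng7 fell as well, with Kcnab1 at -0.50, Rasd2 at -0.38 and Elmod1 at -0.27. Of those most like Gnal, Gabbr1 and Gabra4 fell, at -0.072 and -0.11, and Mmd rose by 0.084.

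**Figure D4:**
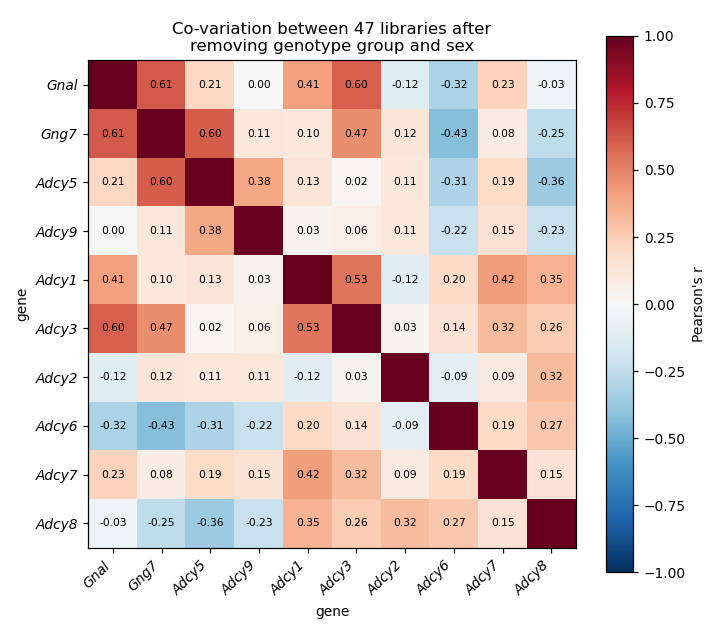
Pearson's r between the residual log2 CPM of each pair of the 10 genes (both axes) over 47 libraries, after genotype group and sex were removed, from blue (-1) to red (1). Gng7 shows r of 0.61 with Gnal and 0.60 with Adcy5, while Adcy5 with Gnal shows 0.21.

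The receptors that act on the cyclase were examined as lists of known members of the cAMP pathway. In Q140 against wild type mice 18.2% of all genes rose and 16.5% fell, shares to set beside the counts of these and the following lists. Of 17 receptors coupled to Gs or Golf, 0 rose, 7 fell and 10 did not pass in Q140 against wild type mice, with a median log2 fold change of -0.18 (all genes -0.00051). With edgeR, Adora2a fell by 0.74 (adjusted p = 3.59e-17), Drd1 by 0.57 (adjusted p = 2.64e-19), and the orphan receptor Gpr6 and the serotonin receptor Htr4 by 0.59 and 0.68. These 4 receptors were picked in part by their small p in this comparison, so they do not stand for the list. Gnal and Gng7, at -0.16 and -0.14, lay near the median of the 17 receptors, and Adcy5, at -0.63, lay below it. Of 31 receptors coupled to Gi or Go, 4 rose, 14 fell and 13 did not pass, with a median of -0.11. Among them, in edgeR's test, Drd2 fell by 0.55 (adjusted p = 6.07e-16) and Chrm4 by 0.55, the adrenergic receptor Adra2c fell by 0.43 and the glutamate receptor Grm4 by 0.35. With limma on FPKM, 0 of the 17 rose and 6 fell in the first list, and 5 rose and 11 fell of 30 tested in the second. On that scale 5900 of all 21309 genes tested rose and 2121 fell, with a median log2 fold change of 0.049. These counts, not the shares above, are to be set beside the limma results of these and the following lists. On the 2 other backgrounds 7 of the 17 receptors of the first list fell again, and 15 and 12 of the 31 of the second.

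Of the other G protein genes, some rose and some fell. Of 12 other alpha subunits, 1 rose and 1 fell, beside 34.7% of all genes in either direction: Gnai1, an inhibitory subunit, at 0.25 and Gnao1, the main Go subunit of brain, at -0.17. Of 5 beta subunits, 1 rose (Gnb1, at 0.060) and 3 fell, including Gnb2 at -0.21 and Gnb5, the partner of Rgs9, at -0.32. In contrast to Gng7, of 10 other gamma subunits 5 rose and 0 fell in Q140 against wild type mice, led by Gng3 at 0.55 ± 0.038 (SE, adjusted p = 6.95e-17 with edgeR) and Gng4 at 0.61 ± 0.059. With limma on FPKM, 6 of these gamma subunits rose and 0 fell, and 5 alpha subunits rose and 1 fell, beside 5900 higher and 2121 lower of all 21309 genes. On the heterozygous background 3 gamma subunits rose and 0 fell, and on the homozygous background 2 rose and 1 fell, with Gng3 at 0.53 and 0.54. Ric8b, a chaperone needed for the stability of Gs and Golf alpha subunits, fell at -0.23 ± 0.033 (SE, adjusted p = 1.81e-07 with edgeR), and Ric8a, which serves the other alpha subunits, did not pass at 0.055. Of the 2 cyclase genes that are no members, Adcy4, known from endothelial cells, had 3.49 ± 0.349 CPM in Q140 and 4.23 ± 1.05 CPM in wild type mice (SD, n = 8 each) and did not pass at -0.26 (adjusted p = 0.0841 with edgeR), and the bicarbonate-stimulated Adcy10 was too low to test.

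Downstream of cAMP the lists differed in direction. Of 6 subunits of protein kinase A (PKA), which cAMP activates, 5 rose, 0 fell and 1 did not pass, with a median of 0.12: the regulatory subunits Prkar1b at 0.29 and Prkar2a at 0.25, and the catalytic subunit Prkacb at 0.13 were examples. On the other 2 backgrounds 4 of the 6 rose. Of 13 other effectors and targets, 3 rose and 2 fell, among them Ppp1r1b, the striatal phosphatase inhibitor that PKA phosphorylates, at -0.60, and Hcn3, a channel of a family gated by cyclic nucleotides, at 0.34. Of 15 phosphodiesterases that break down cAMP, 3 rose, 10 fell and 2 did not pass, with a median of -0.13. Pde10a, which is enriched in medium spiny neurons, was at -0.81, Pde1b at -0.57, Pde7b at -0.40 and Pde2a at -0.28, so Adcy5 fell by more than 3 of these 4 and by less than Pde10a. With limma on FPKM, 3 phosphodiesterases rose and 7 fell, and 5 PKA subunits rose and 0 fell. Ppp1r1b and Pde10a are also among the 10 medium spiny neuron markers. Genes named from these and the preceding lists were picked in part by their small p in Q140 against wild type mice, so they do not stand for their lists.

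**Figure D5:**
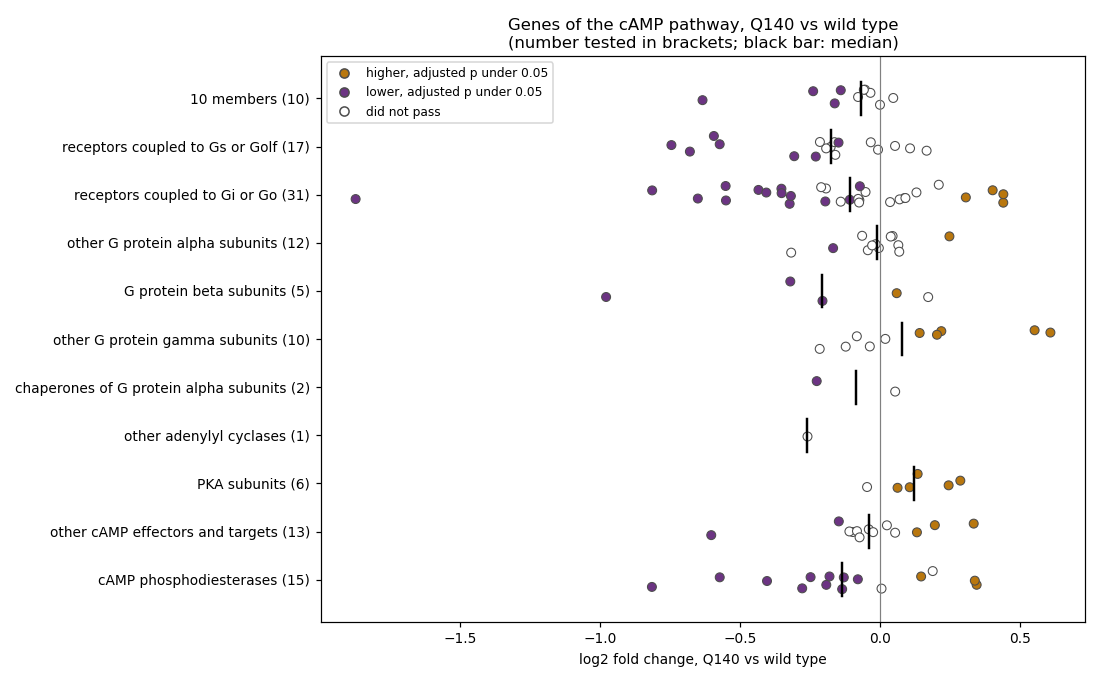
Log2 fold change in Q140 against wild type mice (x axis) of each gene tested in the 10 members and in 10 lists of the cAMP pathway (y axis, with the number tested), coloured by call, with a black bar at the median. Calls among the members and the Gs or Golf receptors are all lower, those among the PKA subunits and the other gamma subunits all higher.

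Some markers of other cell types also passed the test with the Q140 allele. In Q140 against wild type mice, 2 of 8 astrocyte, 3 of 8 microglia, 2 of 8 oligodendrocyte, 2 of 10 striatal interneuron and 5 of 8 endothelial and mural markers fell and 0 rose. Over all genes 16.5% fell and 18.2% rose, so in this comparison the counts of lower astrocyte, oligodendrocyte and interneuron markers were near that share. Of 5 oligodendrocyte precursor markers 1 rose, of 7 choroid plexus markers tested 1 rose, and of 8 cortical markers 2 rose and 2 fell. In Q140 Ccdc82+/- against Ccdc82+/- mice 7 of 8 microglia and 7 of 8 endothelial and mural markers fell, and in Q140 Ccdc82-/- against Ccdc82-/- mice 7 of 8 and 5 of 8 did, beside 9 of 10 medium spiny neuron markers in all 3 comparisons. Oligodendrocyte markers that fell were 2 of 8 on the heterozygous and 4 of 8 on the homozygous background, where their median log2 fold change was -0.15. Astrocyte markers that fell were 2 of 8 on both backgrounds, and interneuron markers that fell were 3 and 2 of 10. Over all genes 16.7% fell on the heterozygous and 15.7% on the homozygous background. With limma on FPKM, the microglia markers that fell were 0, 2 and 5 of 8 on the wild type, heterozygous and homozygous backgrounds, and the endothelial and mural markers that fell were 3, 2 and 3 of 8. Oligodendrocyte markers that fell on that scale were 1, 0 and 4 of 8 in the same order, and 2 rose on the heterozygous background. Of the 21309 genes tested with limma, 2121, 1914 and 1818 fell in the same order. Microglia markers summed to 388 to 420.1 CPM in Q140 mice, against 412 to 444 CPM in wild type mice, and these ranges overlapped. Endothelial and mural markers summed to 242 to 274 CPM in Q140 mice, against 261 to 326 CPM in wild type mice, and these overlapped too. On the heterozygous background their sums did not overlap, at 245.7 to 275.4 CPM with Q140 against 282.1 to 315.9 CPM without it. Nor did they on the homozygous background, at 247.4 to 274.4 CPM against 284.6 to 321.4 CPM. Microglia sums overlapped on the heterozygous background, at 369.6 to 429.5 CPM against 413.6 to 475 CPM. On the homozygous background they did not, at 371.4 to 414.1 CPM against 415.4 to 462.1 CPM. Astrocyte markers summed to 3346 to 3730 CPM in Q140 mice, against 3743 to 4111 CPM in wild type mice, with no overlap. Their part in the values of the 10 genes was not tested. Without the Ccdc82-/- library that was high in choroid plexus markers, an alternative chosen after seeing the data, Adcy5 stood at -0.64, Adcy9 at -0.27, Gnal at -0.14 and Gng7 at -0.21 for Q140 Ccdc82-/- against Ccdc82-/- mice.

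Some of the 10 genes share their position with others in the annotation. Gnal (ENSMUSG00000024524, chromosome 18, 67088216 to 67226792, plus strand) overlaps with Chmp1b on the same strand, which had 1217 to 2571 counts per library, and with Mppe1 on the opposite strand, which had 809 to 1249, against at least 40356 counts of Gnal. Adcy3 overlaps with Cenpo on the opposite strand, which had 143 to 278 counts, against at least 4171 of Adcy3. The same-strand pseudogenes, Gm6142 within Adcy9 and Gm3828 within Gng7, had at most 297 and 271 counts. The libraries were stranded per the labels' protocols, but whether counting used the strand is not given in the sources used here, so reads of such neighbours may be shared.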

How the data were processed

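Striatal mRNA was sequenced in 47 libraries. Per the labels' protocols, RNA was isolated with RNeasy columns and made into stranded TruSeq libraries. Per the submitters' processing notes, the tools were STAR 2.7.5c, SAMtools 1.10 and HTSeq 0.12.3 and the build was GRCm38. The settings, the annotation release and whether the count used strand are not given in the sources used here. The authors deposited a raw count per gene and FPKM values, which were checked to equal the count divided by the library total and 1 length per gene.

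The counts were tested with edgeR 4.0.16 in R 4.3.3 (filterByExpr, TMM, glmQLFit with robust estimation, glmQLFTest), with 1 coefficient per genotype group and a term for sex, on 19193 of 48795 genes, and with 40 residual degrees of freedom. All 6 groups shared 1 estimate of the spread. The script was tested on simulated data. Alternatives were RLE size factors, no filter on low counts, models without sex, with a replicate block or with plate column, each sex alone, only the groups compared, leaving out a library, limma 3.58.1 on log2(FPKM + 0.1) or log2(FPKM + 1) for genes at 0.1 FPKM or more in 7 or more libraries, and DESeq2 1.42.0. Intervals are at 95%.

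The members, the gene lists and the tests were chosen with earlier results of these data known. Named genes are the members, the 3 genes most like Adcy5, Gnal and Gng7 by residual log2 CPM (prior count 2, mean log2 CPM of 1 or more), and up to 4 genes per list, ranked by p for Q140 against wild type, with Drd1, Drd2, Adora2a, Chrm4, Gnas, Adcy4 and Adcy10 always, while Gm10123 and Gm42797 were named after their values were seen. Nothing says that each library came from an animal of its own, and p-values measure the spread between these libraries. Depth was 41.3 to 61.7 M counts per library, and its effect on precision is contained in the spread between libraries.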

Additional observations from a re-analysis of the deposited data

Results flagged for a closer look

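Among the 60 sets formed by the 10 genes and 6 groups, 4 held a library that stood apart from the others of its group in CPM (Dixon's test at the 95% level), where chance gives about 1 in 20. Adcy1 was low in a male Q140 Ccdc82-/- library, at 263.4 CPM, against 302.4 to 311.1 CPM in the other 6. Adcy6 was low in a male wild type library, at 15.29 CPM, against 18.4 to 20.76 CPM in the other 7. Adcy8 was high in a female Ccdc82+/- library, at 5.096 CPM, against 3.241 to 4.053 CPM in the other 7. Adcy9 was low in a female Q140 library, at 65.65 CPM, against 69.8 to 72.95 CPM in the other 7.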

How the results depend on the processing

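The 12 falls of Adcy5, Adcy9, Gnal and Gng7 (4 genes on 3 backgrounds) kept their direction and their call under all 13 alternatives, 156 of 156 values. Of the 234 values of the other 6 genes, 204 kept sign and call, 4 became calls (Adcy1 and Adcy6 with limma on FPKM in Q140 Ccdc82+/- against Ccdc82+/- mice) and 26 changed sign, all without a call. The cause of these changes was not tested. In Q140 against wild type mice the changed signs, on the log2 scale, were 0.0031 and 0.0030 (FPKM + 0.1 and + 1) for Adcy1, 0.021 and 0.020 for Adcy2 and 0.0014 and 0.00040 for Adcy6. There Adcy3 had -0.0044 with RLE factors, -0.00036 without the sex term, -0.0060 with plate column, -0.041 in females alone and -0.0043 with DESeq2, and Adcy8 had -0.061 with plate column. In Q140 Ccdc82+/- against Ccdc82+/- mice Adcy1 had -0.012 in males alone, Adcy2 0.017 and 0.016 and Adcy3 0.029 and 0.028 on FPKM. In Q140 Ccdc82-/- against Ccdc82-/- mice Adcy1 had -0.018 in males alone, and on FPKM Adcy2 had 0.028 and 0.026, Adcy3 0.027 and 0.026, Adcy6 0.015 and 0.011 and Adcy8 0.0049 and 0.00047. Fewer genes passed in each sex alone, where fewer libraries enter: 4321 in females alone and 3922 in males alone for Q140 against wild type mice (6655 with both), 3324 in females alone on the heterozygous background (6726), and 3452 and 3783 on the homozygous background (6367). For Ccdc82+/- against wild type mice 2 genes passed with plate column (Ccdc82 and Gm42797) and 0 in males alone, and for Q140 Ccdc82+/- against Q140 mice 0 in females alone and 0 in males alone. The interaction with Ccdc82+/- had 1 call with plate column (Gm42797) and 1 with DESeq2 (Gm10123). Without wild type replicate 1 (male), and without Ccdc82-/- replicate 1 (male), 6371 to 6762 and 6197 to 6719 genes passed in the 3 Q140 comparisons, the members among them being 4 each time. With limma on log2(FPKM + 0.1), 5900 genes were higher and 2121 lower in Q140 against wild type mice, 6501 and 1914 on the heterozygous and 6143 and 1818 on the homozygous background. Residuals gave no general sign that replicate numbers pair the libraries: 115 same-numbered pairs had a median r of -0.013 (-0.43 to 0.517), 24 of them over 0.1. The median was 0.00247 for pairs with different numbers. Some library names also share a number, both across groups and within a group. That grouping was not modelled, so any likeness within it is not accounted for in the p-values. With the replicate block 6647, 6739 and 6276 genes passed in the 3 Q140 comparisons, 4 of them members each time. Adcy7 and Adcy8, with 135 to 295 counts per library, have the widest intervals, which limits what can be detected for them.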
